A study of Mus musculus with 6 samples.

Results

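Aldehydes and ketones are cleared from cells by a handful of enzyme families, and 70 genes of these families, out of 54532 in the deposited table, are described here. They are the genes whose symbol begins with Aldh, Akr, Cbr, Adh, Dhrs or Rdh followed by a digit, with Aldh3a1, Aldh1l2, Akr1b3 and 2 pseudogene symbols left out. The rule goes by name, though it was set with earlier results of these data known. It gives 19 aldehyde dehydrogenases (Aldh), 16 aldo-keto reductases (Akr), 4 carbonyl reductases (Cbr), 6 alcohol dehydrogenases (Adh), 11 short-chain dehydrogenase/reductases (Dhrs, of which Dhrs13os is an antisense RNA) and 14 retinol dehydrogenases (Rdh). Reads were sufficient for a test in 43 of the 70, and 27 were too low.

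Poly-A RNA was sequenced from mouse 3T3 cells, a fibroblast line, that the labels call wild-type adipocytes. In 3 samples the cells received the solvent DMSO and in 3 they received baicalin, a flavone glucuronide from Scutellaria roots, at 200 µM. Of the subline, the differentiation protocol and the length of treatment nothing is said in the labels used here. Whether the samples of a group were separate cultures is not stated either, and the p-values therefore reflect only sample-to-sample spread that may be technical.

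Aldehyde dehydrogenases oxidise aldehydes to carboxylic acids with NAD+ or NADP+, whereas aldo-keto reductases and carbonyl reductases reduce aldehydes, ketones and quinones to alcohols with NADPH. Alcohol dehydrogenases and the short-chain enzymes of the Dhrs and Rdh groups interconvert alcohols with aldehydes or ketones, among them retinol with retinaldehyde and hydroxysteroids with ketosteroids. In fat tissue these enzymes are known for making and removing retinaldehyde, for detoxifying aldehydes released by lipid peroxidation, and for steps of amino acid metabolism that pass through a semialdehyde.

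Total counts ranged from 16730594 to 18326874 over the 6 libraries, and within each group the libraries differed beyond sampling noise. With 3 counts as the limit for a gene without reads, undetected transcripts lie below 0.163 to 0.181 CPM. The lowest limit is that of DMSO library 1 and the highest that of baicalin library 1. CPM are reads scaled to a common library size, and the limit covers counting error only. Of the 12 adipocyte markers, Lpl (1440 CPM in DMSO), Fabp4 (430 CPM) and Plin4 (429 CPM) were abundant, whereas Lep had 2 reads over all libraries and Slc2a4 had 6. Of the 8 tested, 7 were lower in baicalin and none higher. Their summed level was 2220 to 2420 CPM in DMSO and 945 to 975 CPM in baicalin. The fibroblast and preadipocyte markers summed to 24400 to 25500 CPM in DMSO and 20500 to 21500 CPM in baicalin, with 3 higher and 7 lower among 11 tested. The 10 macrophage markers summed to 24.3 to 27.3 CPM in DMSO and 105 to 106 CPM in baicalin, of which Cd14 made up 21.2 and 99.5 CPM, with 2 higher and none lower of 4 tested. Their defining genes Ptprc, Adgre1, Itgam and Tyrobp had 6 reads or fewer each. Of the endothelial markers Vwf alone could be tested, and the list summed to at most 3.16 CPM, while 5 of 6 epithelial markers had no reads. The part of these marker differences in the results below was not tested. In bulk RNA, fewer cells of a type and less RNA per cell cannot be told apart.

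Most members that were called were higher in baicalin. Of the 43 tested members, 24 were higher in baicalin, 8 were lower and 11 were not called, by the quasi-likelihood test of edgeR with p-values adjusted by Benjamini-Hochberg over all 13728 genes tested (threshold 0.05). The share higher was 55.8%, where 33.6% of all genes tested were higher, and the share lower was 18.6%, where 34.1% of all genes were. A change of at least 2-fold was seen upward in 6 members (14.0%, against 5.24% of all genes) and downward in 1 (2.33%, against 9.71%). The 3 libraries of each group did not overlap for 34 members, or 79.1%, against 70.2% of all genes. The median log2 fold change, written throughout as baicalin against DMSO, was 0.33 over the 43 members and 0.0 over all genes.

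These counts depend in part on how the libraries are scaled. With library size alone as the scale, the median of all genes moves to -0.13, that of the members to 0.20, and the calls to 20 higher and 10 lower, while the share of higher calls among all called genes goes from 49.7% to 37.4%. With trends of exon length and GC content removed from each library, the members' median was 0.12 and the calls were 20 higher and 9 lower. Of the 32 called members, 23 kept their call under all 17 alternative settings, the other 9 lost it under at least 1, and none changed sign. Of these 9, Akr1c18 had very few reads, and the other 8 had log2 fold changes of 0.37 or less in size.

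**Figure D1:**
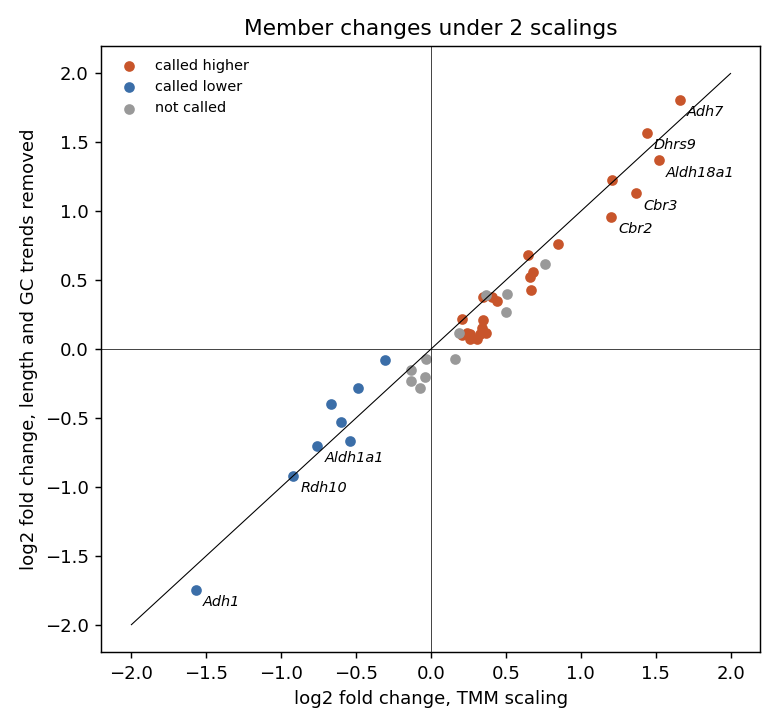
Log2 fold change (baicalin against DMSO) of the 43 tested members with TMM scaling (x axis) and after length and GC trends were removed from each library (y axis), coloured by the call under TMM; the diagonal marks equal values. Adh7, Dhrs9, Aldh18a1, Cbr3 and Cbr2 stay far above 0 and Adh1, Rdh10 and Aldh1a1 far below it, while many small rises come closer to 0.

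The largest changes sat in few genes. The calls are given by family, beside 33.6% higher and 34.1% lower over all genes tested. The Dhrs group had 7 of 8 tested members higher and none lower, and a median log2 fold change of 0.51, though fewer were higher once length and GC trends were removed. The carbonyl reductases had 3 higher and 1 lower of 4 (median 0.77) and the alcohol dehydrogenases 2 higher and 1 lower of 3 (median 0.35). Among the aldo-keto reductases 5 were higher and 2 lower of 9 (median 0.33). The aldehyde dehydrogenases had 5 higher, 3 lower and 5 not called of 13 (median 0.21). In the retinol dehydrogenases 2 were higher, 1 lower and 3 not called of 6 (median 0.19). In the aldehyde and the retinol dehydrogenases the share higher was thus near that of all genes. No test compared one family with another or with all genes, and 3 to 13 tested members a family are few.

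**Figure D2:**
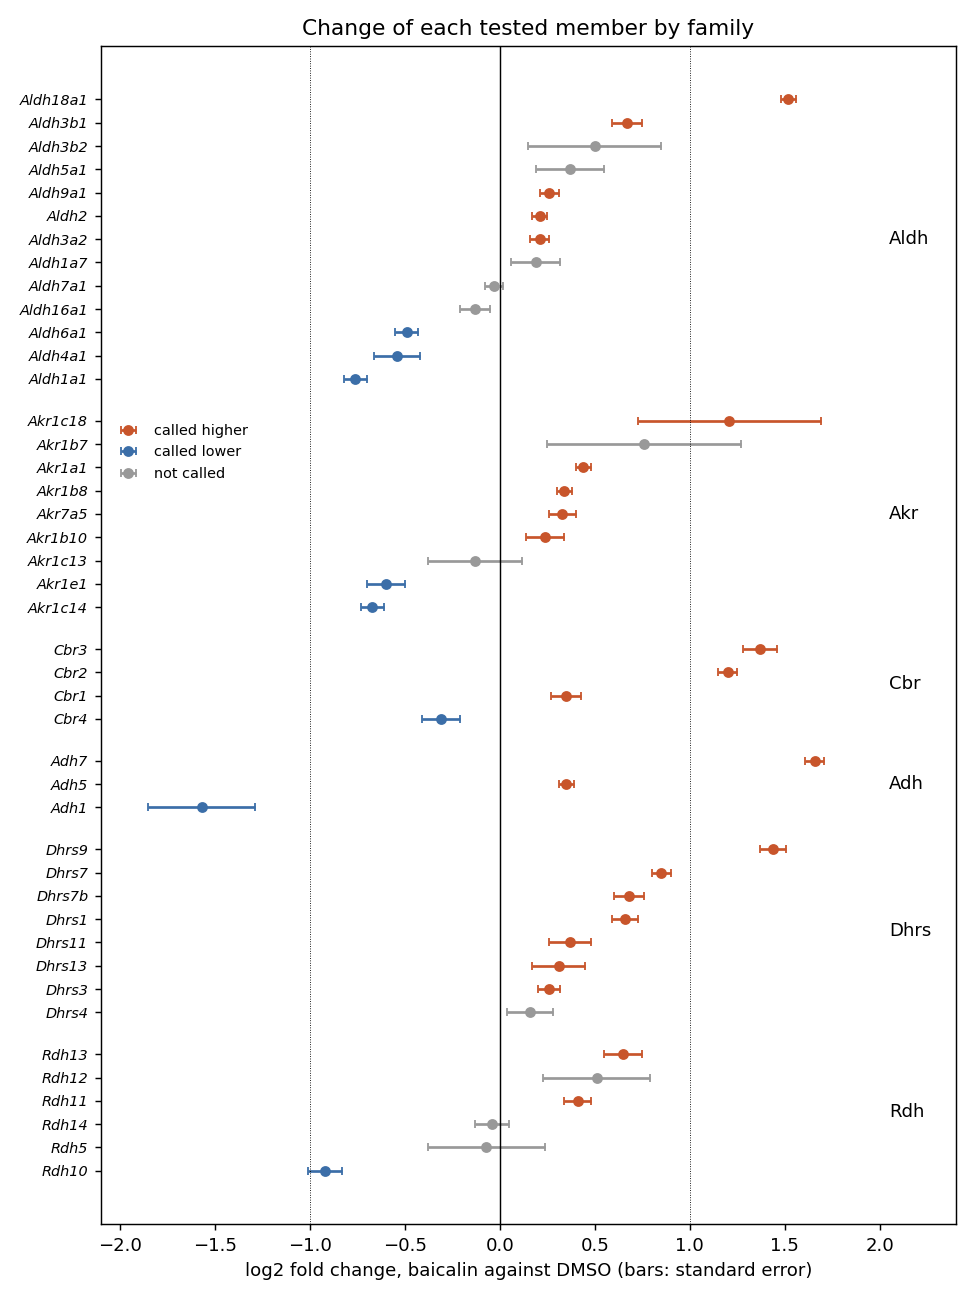
Log2 fold change of each tested member (points; bars are standard errors), baicalin against DMSO, grouped by family and ordered by size; dotted lines mark a change of 2-fold. Points are red where called higher, blue where called lower and grey where not called, and 6 members lie above the upper line among those called (Akr1c18 among them with a wide bar) and Adh1 lies below the lower line.

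Among the members described here, and per unit of transcript length, the aldehyde dehydrogenases were the most abundant family and the retinol dehydrogenases the least. The genes left out by name, Aldh3a1, Aldh1l2 and Akr1b3, are not in the sums or shares below. Levels between genes are compared on the authors' scale of FPKM, fragments scaled by transcript length and a measure of sequencing depth. That depth is not the total counts, which were 17711950 in DMSO library 1 and 17598666 in baicalin library 1. Akr1a1 had 5511 reads and 110 FPKM in the former, and 6901 reads and 155 FPKM in the latter. Relative to total counts, FPKM thus stands higher in baicalin, and the other libraries of the groups show the same. The summed FPKM of all members was 714, 681 and 725 with DMSO and 1000, 934 and 931 with baicalin, or 707 ± 22.6 and 955 ± 38.9 (SD, n = 3 each, without a test). By family, the sum went from 292 ± 17.4 to 351 ± 18.7 for Aldh and from 225 ± 5.89 to 283 ± 12.3 for Akr. It went from 60.1 ± 3.93 to 130 ± 5.03 for Cbr, from 35.0 ± 0.725 to 60.1 ± 1.33 for Adh and from 63.8 ± 1.0 to 99.2 ± 1.66 for Dhrs. For Rdh the sums of 30.8 ± 0.943 and 31.6 ± 0.768 overlapped between the groups. In the other 5 families every baicalin library lay above every DMSO library on this scale. The sums were not computed on total counts, where baicalin would stand lower. The Aldh groups, with 310 in DMSO library 3 and 339 in baicalin library 3, may then not stay apart. The carbonyl reductases, 8.51% of the summed FPKM in DMSO, made up 13.6% in baicalin, and the share of the aldehyde dehydrogenases went from 41.3% to 36.7%.

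**Figure D3:**
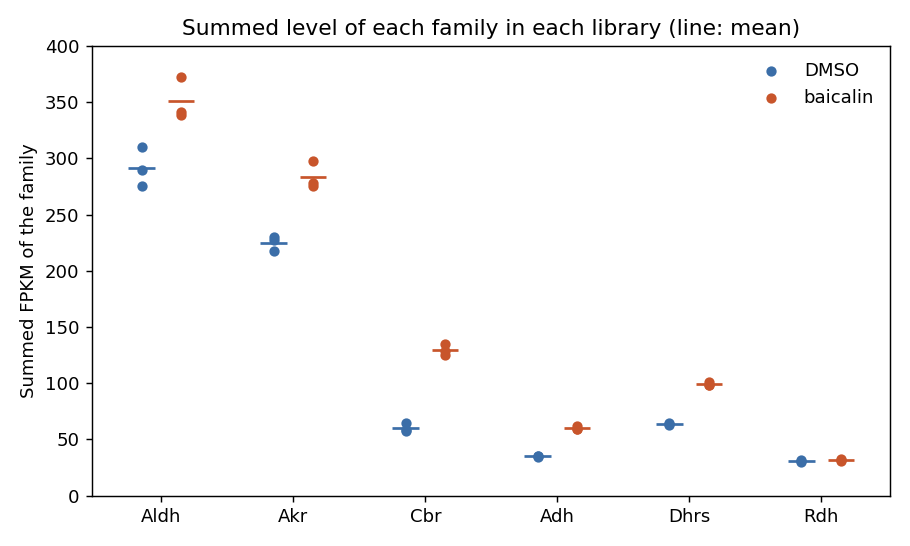
Summed FPKM of the described members of each family in each library (points; the line is the mean of 3), DMSO in blue and baicalin in red. On the authors' FPKM scale the groups are apart in 5 families, with the widest relative gap for Cbr, and overlap for Rdh.

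A few abundant genes carry these sums. Akr1a1, an aldehyde reductase that also converts glucuronate to gulonate, held 47.1% of the Akr sum in DMSO, and Aldh1a7, a rodent paralogue of Aldh1a1, held 37.0% of the Aldh sum. Cbr2 held 58.4% of the Cbr sum and Adh5 71.2% of the Adh sum, the latter 53.4% in baicalin, where Adh7 was higher. Rdh14 held 46.1% of the Rdh sum in DMSO, while no Dhrs member dominated, with Dhrs3 above Dhrs7 in DMSO (13.9 against 12.3 FPKM) and Dhrs7 above Dhrs3 in baicalin (22.3 against 16.8 FPKM).

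**Figure D4:**
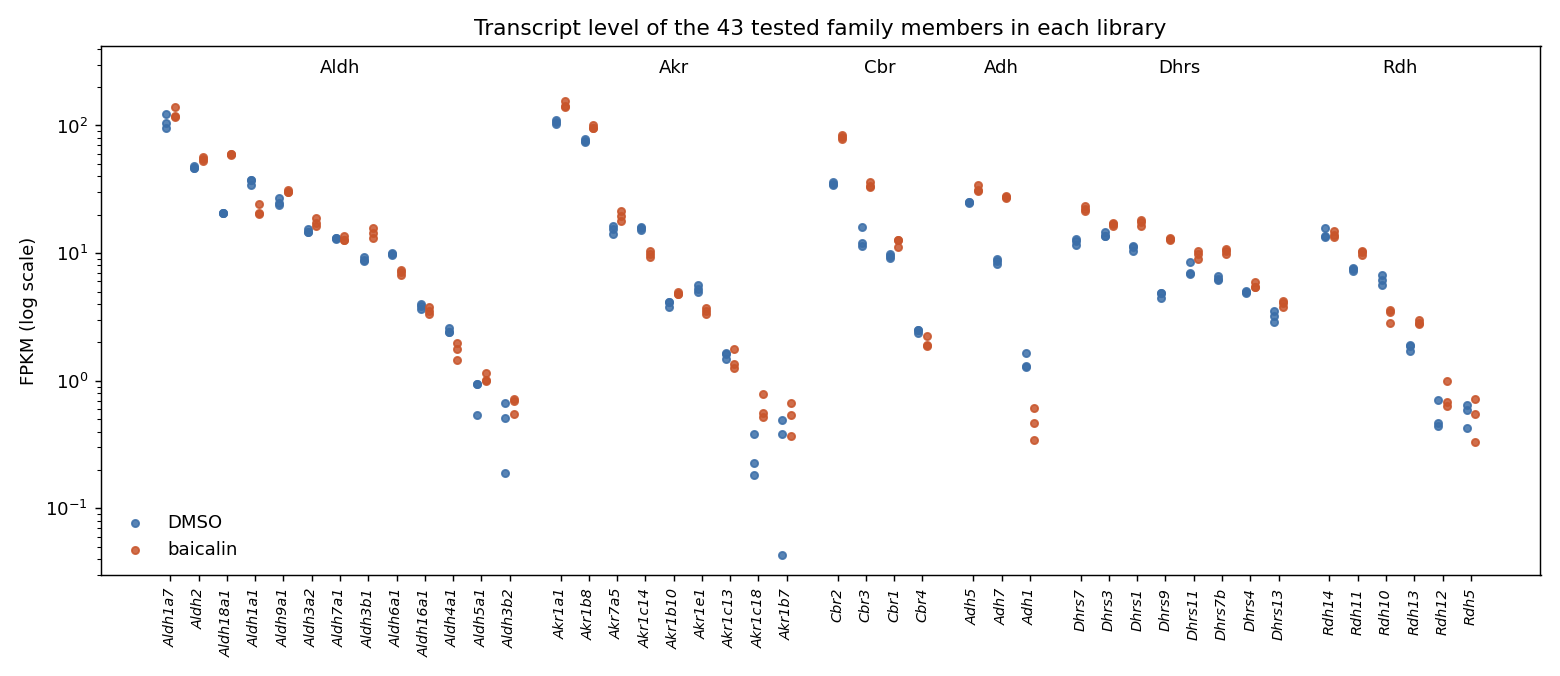
FPKM (log scale) of the 43 tested members in each of the 6 libraries, by family and ordered by level within it, DMSO in blue and baicalin in red. Aldh1a7, Akr1a1, Akr1b8 and Cbr2 are the highest members in baicalin, and the points of Akr1b7, Akr1c18, Aldh3b2, Rdh12 and Rdh5 spread widely at levels of about 1 FPKM and below.

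Of the neighbouring members that could be tested, the widest contrast lay in the alcohol dehydrogenase cluster. The 6 alcohol dehydrogenase genes stand in a row on the plus strand of chromosome 3 between positions 138217760 and 138455499 (mm10, GENCODE M21), in the order Adh7, Adh1, Adh6a, Adh6b, Adh4 and Adh5. Adh7, the class IV enzyme that oxidises retinol and ethanol, had read counts of 599, 589 and 564 in DMSO against 1660, 1837 and 1771 under baicalin. Every baicalin library was thus far above every DMSO library, and the level went from 32.3 ± 1.39 to 102 ± 2.08 CPM (SD, n = 3 each), a log2 fold change of 1.66 (SE 0.05, adjusted p = 6.46e-33). Its neighbour Adh1, the class I enzyme of ethanol and retinol oxidation, went the other way with 53, 64 and 52 reads under DMSO versus 17, 24 and 13 under baicalin. The groups did not overlap here either, and the log2 fold change was -1.57 (SE 0.28, adjusted p = 1.93e-06). Adh5, the class III enzyme that oxidises the adduct of formaldehyde and glutathione, gave 2477, 2350 and 2421 reads with DMSO versus 2996, 2917 and 2865 with baicalin, a modest rise of 0.35 on the log2 scale (SE 0.04, adjusted p = 2.93e-10). Adh6a and Adh6b had no reads, and Adh4 had 2.

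Promoter sequences are shown for the Adh7 and Adh1 pair, for the Cbr1 and Cbr3 pair described further on, and for Aldh18a1, the member with the smallest adjusted p, to set beside each other the pair of neighbours with the widest contrast, a pair that rose by unequal amounts, and the rise with the smallest p. They are RefSeq windows of 300 bases on build GRCm38.p6, from 250 bases before to 50 bases after a transcription start, written 5′ to 3′ on the strand of the gene. Capitals mark the xenobiotic response element core GCGTG, searched on both strands, so that a match on the opposite strand reads CACGC. The window of Adh7 is chr3:138217523-138217822 on the plus strand and that of Adh1 is chr3:138277335-138277634 on the plus strand. The window of Cbr1 is chr16:93607587-93607886 on the plus strand, that of Cbr3 is chr16:93682969-93683268 on the plus strand, and that of Aldh18a1 is chr19:40588414-40588713 on the minus strand.
Adh7: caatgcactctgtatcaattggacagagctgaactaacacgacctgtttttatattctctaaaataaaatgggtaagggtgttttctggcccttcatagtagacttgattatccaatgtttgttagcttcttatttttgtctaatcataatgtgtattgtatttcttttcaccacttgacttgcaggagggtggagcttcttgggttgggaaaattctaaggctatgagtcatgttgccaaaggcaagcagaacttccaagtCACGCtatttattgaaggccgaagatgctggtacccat
Adh1: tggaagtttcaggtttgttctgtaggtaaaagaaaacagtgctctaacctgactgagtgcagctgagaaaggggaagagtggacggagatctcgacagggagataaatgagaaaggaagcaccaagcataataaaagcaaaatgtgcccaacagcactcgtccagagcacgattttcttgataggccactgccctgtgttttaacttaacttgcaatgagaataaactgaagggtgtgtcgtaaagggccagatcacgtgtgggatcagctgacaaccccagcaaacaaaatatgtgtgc
Cbr1: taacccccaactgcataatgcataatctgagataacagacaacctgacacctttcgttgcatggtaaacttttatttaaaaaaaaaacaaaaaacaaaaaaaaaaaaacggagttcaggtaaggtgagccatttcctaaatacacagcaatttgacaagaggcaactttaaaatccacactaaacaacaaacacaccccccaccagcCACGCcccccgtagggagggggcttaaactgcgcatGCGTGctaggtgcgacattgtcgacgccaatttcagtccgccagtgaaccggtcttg
Cbr3: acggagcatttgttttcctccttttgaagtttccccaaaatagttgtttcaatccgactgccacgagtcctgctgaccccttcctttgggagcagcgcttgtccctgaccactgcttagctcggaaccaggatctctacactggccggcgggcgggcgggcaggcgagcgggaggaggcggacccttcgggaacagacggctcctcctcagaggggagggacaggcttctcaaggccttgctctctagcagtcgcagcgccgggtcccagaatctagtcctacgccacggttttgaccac
Aldh18a1: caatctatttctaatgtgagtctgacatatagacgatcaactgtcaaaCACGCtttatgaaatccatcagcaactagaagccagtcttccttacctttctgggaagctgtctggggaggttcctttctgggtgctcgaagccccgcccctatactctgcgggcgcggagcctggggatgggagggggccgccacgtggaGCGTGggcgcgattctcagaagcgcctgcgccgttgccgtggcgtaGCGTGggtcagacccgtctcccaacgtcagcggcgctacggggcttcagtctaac
The core occurs in these windows once for Adh7, at position 13 counted from the start site, and not for Adh1 or Cbr3. It occurs at positions -43 and -7 for Cbr1 and at -202, -51 and -5 for Aldh18a1. Over all members, 59 of 70 had a window in the RefSeq table, and the core was found for 22 of the 59. It was found for 13 of 22 members called higher, 3 of 7 called lower and 2 of 9 not called. Of all genes with a window 35.2% hold it, but of the tested genes with a window 56.0% do, and 58.4% of all genes called higher, so the members are near the share of the tested genes. The core of the antioxidant response element, TGACNNNGC on either strand, was found for 6 of the 59 members, against 14.0% of all genes with a window. Of these 6, 4 were too low to test. It was found for 1 of 22 members called higher (Aldh9a1), none of 7 called lower and 1 of 9 not called. The share was 16.9% of tested genes with a window and 18.1% of all genes called higher. Such matches describe letters in a short window and nothing about binding.

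Among the Aldh members of amino acid metabolism, Aldh18a1 and Aldh9a1 were higher, Aldh4a1 and Aldh6a1 were lower, and Aldh5a1 and Aldh7a1 were not called. Aldh18a1, which makes the glutamate semialdehyde from which proline is built, had read counts of 1539, 1456 and 1537 in DMSO against 3982, 4193 and 4138 under baicalin. The libraries within each group were nearly alike, at 83.6 ± 0.523 and 239 ± 2.10 CPM (SD, n = 3 each), and the log2 fold change was 1.52 (SE 0.04, adjusted p = 1.10e-35). Aldh4a1, which acts in the opposite direction by oxidising that intermediate in proline breakdown, gave 216, 207 and 232 reads with DMSO versus 140, 124 and 163 with baicalin. Its groups also stood apart, and it fell by 0.54 on the log2 scale (SE 0.12, adjusted p = 9.83e-05). The exons of Aldh4a1 overlap those of Gm21969 on the same strand over 1595 bases, and 30.03% of its 50-base stretches occur in other genes. Gm21969 had 2 reads in all, but the level of Aldh4a1 is uncertain to that extent. Among the genes next to these steps of proline metabolism, Pycr1, which completes proline synthesis, rose by a log2 fold change of 1.30 (adjusted p = 3.38e-21). Prodh, which starts proline breakdown, was low, at 42 reads in DMSO and 35 in baicalin, and not called (adjusted p = 0.702).

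Aldh6a1, the methylmalonate semialdehyde dehydrogenase of valine and thymine breakdown, had read counts of 1051, 973 and 1033 in DMSO against 686, 713 and 663 under baicalin, a fall without overlap (log2 fold change -0.49, SE 0.06, adjusted p = 1.10e-10). Its exons overlap those of Bbof1 on the other strand over 1078 bases, but that gene had 158 reads in all. Aldh9a1, which acts in carnitine synthesis, rose slightly from 84.5 ± 4.78 to 102 ± 2.70 CPM (log2 fold change 0.26, SE 0.05, adjusted p = 3.80e-06). Aldh7a1, the lysine breakdown enzyme antiquitin, gave 1225, 1191 and 1229 reads with DMSO versus 1065, 1221 and 1113 with baicalin and was not called (log2 fold change -0.03, adjusted p = 0.641), though library size alone made it lower (-0.15, adjusted p = 0.00717). Its exons share 300 bases with Phax on the other strand, which makes both values uncertain where the strand setting is not known. Aldh5a1, which oxidises the succinate semialdehyde made from GABA, had read counts of 56, 92 and 96 in DMSO against 105, 98 and 97 under baicalin. The groups did not overlap, yet the first DMSO library was far below the other two, and the gene narrowly missed the threshold (log2 fold change 0.37, SE 0.18, adjusted p = 0.0578). Without that first DMSO library the change was 0.15, and without the second or the third it was 0.50 and passed (adjusted p = 0.0309 and 0.0271), as it did without the second baicalin library (0.0468) and under 4 other alternative settings. The exons of Aldh5a1 overlap those of 4932702P03Rik on the other strand over 796 bases, a gene with 2 reads in all.

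Of the members for acetaldehyde and fatty aldehydes, Aldh2, Aldh3a2 and Aldh3b1 were higher, Aldh3b2 was not called, and Aldh1b1 and Aldh3b3 were too low to test. Mitochondrial Aldh2, the main acetaldehyde oxidiser, gave 4370, 4129 and 4482 reads with DMSO versus 4742, 4885 and 4584 with baicalin. After scaling the groups did not overlap, and the log2 fold change was 0.21 (SE 0.04, adjusted p = 7.93e-06). Aldh3a2, the fatty aldehyde dehydrogenase of the endoplasmic reticulum, also rose by 0.21 (SE 0.05, adjusted p = 0.000230). Both calls were lost with library size alone as the scale, at 0.08 each (adjusted p = 0.0582 for Aldh2 and 0.142 for Aldh3a2). Aldh3b1, another enzyme of fatty aldehydes, rose more, from 16.8 ± 0.649 to 26.7 ± 2.21 CPM (log2 fold change 0.67, SE 0.08, adjusted p = 8.92e-10), and kept its call in every alternative. Its paralogue Aldh3b2 had read counts of 20, 7 and 26 in DMSO against 25, 26 and 20 under baicalin, which overlap (log2 fold change 0.50, adjusted p = 0.212, and between 0.14 and 0.88 as single libraries were left out), and the low counts of Aldh3b2 and of Aldh3b3 (7 reads in DMSO and 23 in baicalin) are uncertain because the pair shares sequence. Aldh16a1 gave 396, 359 and 406 reads with DMSO versus 343, 344 and 319 with baicalin and was not called (log2 fold change -0.13, adjusted p = 0.163). It was called lower with library size alone (-0.26, adjusted p = 0.00661) and after removal of length and GC trends (-0.23, adjusted p = 0.0139), and its exons overlap those of Pih1d1.

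Enzymes of retinoid metabolism split by member. Retinol is oxidised to retinaldehyde chiefly by Rdh10 and returned to retinol by reductases such as Dhrs3 and Rdh11, and Aldh1a enzymes turn retinaldehyde into retinoic acid. Rdh10 had read counts of 468, 484 and 425 in DMSO against 190, 250 and 253 under baicalin. All baicalin libraries were lower than all DMSO libraries, and it fell by 0.92 on the log2 scale (SE 0.09, adjusted p = 2.83e-12). Aldh1a1 gave 3363, 2900 and 3368 reads with DMSO versus 1940, 1738 and 1731 with baicalin, again with the groups apart, and it fell by 0.76 (SE 0.06, adjusted p = 4.04e-10). Of the other Aldh1a genes, Aldh1a2 and Aldh1a3 were barely present: Aldh1a2 had no reads and Aldh1a3 had 5 in DMSO and 6 in baicalin. The abundant Aldh1a7 is described next.

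Aldh1a7 lies next to Aldh1a1 on chromosome 19 and did not follow it. It had read counts of 3943, 3454 and 4657 in DMSO against 4653, 4241 and 4131 under baicalin, so that the groups overlapped (log2 fold change 0.19, SE 0.13, adjusted p = 0.265). The third DMSO library was the highest of the 3, and without it the change was 0.31 and passed the test (adjusted p = 0.00071), while it was 0.12 without the second DMSO or the first baicalin library. Of the 50-base stretches of Aldh1a7 transcripts, 7.49% also occur in other genes, most often in Aldh1a1, so some reads of the pair could be assigned to either gene.

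Of the reductases of retinaldehyde and their relatives, 3 rose modestly and 4 were not called. Dhrs3 went from 40.4 ± 1.62 to 48.4 ± 1.18 CPM (log2 fold change 0.26, SE 0.06, adjusted p = 0.000157), although the call was lost once length and GC trends were removed (0.07, adjusted p = 0.323). Rdh11 went from 25.6 ± 0.583 to 34.1 ± 1.34 CPM (log2 fold change 0.41, SE 0.07, adjusted p = 1.55e-06). Rdh13, a mitochondrial member, went from 11.9 ± 0.693 to 18.7 ± 0.791 CPM (log2 fold change 0.65, SE 0.10, adjusted p = 8.03e-08). Rdh14, the most abundant retinol dehydrogenase by FPKM, gave 360, 350 and 422 reads with DMSO versus 355, 360 and 332 with baicalin and was not called (adjusted p = 0.711), except as lower once length and GC trends were removed (-0.20, adjusted p = 0.0333). Dhrs4, a peroxisomal reductase, had read counts of 160, 148 and 162 in DMSO against 169, 166 and 162 under baicalin and was not called (log2 fold change 0.16, adjusted p = 0.254). Rdh12, known from photoreceptors, and Rdh5, known from the pigment epithelium of the retina, had at most 52 reads in a library and overlapped between groups (adjusted p = 0.0966 and 0.848). Without the third DMSO library Rdh12 passed the test at 0.76 (adjusted p = 0.0339), and without the second baicalin library it stood at 0.29, against 0.51 with all libraries. The exons of Rdh5 overlap those of Bloc1s1, which makes it uncertain.

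A pair of short-chain enzymes of retinol, steroid and lipid metabolism also rose. Dhrs9, which oxidises retinol and hydroxysteroids, gave 379, 363 and 346 reads with DMSO versus 920, 947 and 939 with baicalin. The groups were far apart, at 20.1 ± 0.980 and 54.5 ± 0.944 CPM, and the log2 fold change was 1.44 (SE 0.07, adjusted p = 2.35e-25). Dhrs7b, which reduces acyl-dihydroxyacetone phosphate in ether lipid synthesis, rose from 20.9 ± 0.706 to 33.5 ± 1.28 CPM (log2 fold change 0.68, SE 0.08, adjusted p = 1.89e-11).

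The remaining Dhrs genes were also higher. Dhrs7, an enzyme of the endoplasmic reticulum and the most abundant of its family by mean FPKM over all 6 libraries, had read counts of 805, 711 and 821 in DMSO against 1281, 1445 and 1277 under baicalin (log2 fold change 0.85, SE 0.05, adjusted p = 8.38e-20). Dhrs1 rose by 0.66 (SE 0.07, adjusted p = 8.08e-13) and Dhrs11 by 0.37 (SE 0.11, adjusted p = 0.00209), the latter losing its call once length and GC trends were removed (0.12, adjusted p = 0.301). Dhrs13 was at the edge of the threshold, with 127, 110 and 104 reads under DMSO versus 131, 144 and 126 under baicalin (log2 fold change 0.31, SE 0.14, adjusted p = 0.0466), and lost its call under 9 of the alternatives. Among these were the fits without DMSO library 2 or 3 (adjusted p = 0.0781 and 0.157) and without the first or second baicalin library (0.0704 and 0.102). Its exons overlap the antisense RNA Dhrs13os over 386 bases, which had 10 reads in all.

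Retinoid genes outside these families were taken from a list of 27, of which 11 were tested. In this list 4 were higher, 6 lower and 1 not called, with a median log2 fold change of -0.24, beside 33.6% higher and 34.1% lower over all genes. Fabp5, which carries retinoic acid to the nucleus, fell by 0.45 (adjusted p = 2.10e-06) and the nuclear receptor Rxra by 0.47 (adjusted p = 5.65e-15), while Rxrb rose by 0.36 (adjusted p = 1.49e-07). Cyp26b1, which breaks down retinoic acid, had read counts of 1505, 1275 and 1787 in DMSO against 2259, 2367 and 2124 under baicalin (log2 fold change 0.64, SE 0.12, adjusted p = 0.00602). Rarres2, the adipokine chemerin, fell by 0.28 (adjusted p = 0.0366) and lost its call under 7 alternatives, among them without the first or second DMSO library (adjusted p = 0.0741 and 0.189) and without the first or second baicalin library (0.110 and 0.151).

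The carbonyl reductases showed the largest family rise relative to their level. Cbr2, a mitochondrial carbonyl reductase and the most abundant of the 4 by FPKM, gave 879, 798 and 829 reads with DMSO versus 1815, 1830 and 1815 with baicalin. The libraries of each group were close together and the groups far apart, at 46.2 ± 1.21 and 106 ± 2.94 CPM (log2 fold change 1.20, SE 0.05, adjusted p = 1.15e-27). Cbr3, a cytosolic reductase of ketones and quinones, had read counts of 367, 259 and 258 in DMSO against 741, 734 and 692 under baicalin. The first DMSO library was higher than the other DMSO libraries but still far below baicalin, and the log2 fold change was 1.37 (SE 0.09, adjusted p = 1.71e-13). Cbr1, its close relative with the broader range of substrates, gave 460, 419 and 421 reads with DMSO versus 526, 494 and 549 with baicalin, and rose by only 0.35 (SE 0.08, adjusted p = 8.06e-05). Cbr4, which acts in mitochondrial fatty acid synthesis, had read counts of 285, 257 and 284 in DMSO against 189, 207 and 237 under baicalin, a fall of small size (log2 fold change -0.31, SE 0.10, adjusted p = 0.00741) whose call was lost in 3 alternatives, among them DESeq2 (adjusted p = 0.0668).

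Of the aldo-keto reductases described here, the most abundant by FPKM rose, and the members clustered on chromosome 13 split. Akr1a1 gave 5511, 4853 and 5286 reads with DMSO versus 6901, 6859 and 6442 with baicalin, a rise without overlap (log2 fold change 0.44, SE 0.04, adjusted p = 3.77e-14). Akr1b8, an aldose reductase-like enzyme that reduces lipid aldehydes, went from 114 ± 3.44 to 144 ± 4.17 CPM (log2 fold change 0.34, SE 0.04, adjusted p = 1.54e-09). Akr7a5, which reduces aflatoxin dialdehyde and succinate semialdehyde, went from 27.3 ± 1.83 to 34.3 ± 2.84 CPM (log2 fold change 0.33, SE 0.07, adjusted p = 0.000116), a call that was lost after removal of length and GC trends. Akr1b10 rose by 0.24 (SE 0.10, adjusted p = 0.0249) and lost its call under 5 alternatives, among them without the second DMSO library (adjusted p = 0.0882) or the second baicalin library (0.0606). Akr1b7, the third gene of that cluster on chromosome 6, had read counts of 9, 11 and 1 in DMSO against 14, 12 and 8 under baicalin and was not called (log2 fold change 0.76, adjusted p = 0.183), with values from 0.25 to 1.26 as single libraries were left out.

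On chromosome 13, 9 members lie between positions 4049011 and 4609174, and 4 of them were tested. Akr1c14, a hydroxysteroid dehydrogenase, gave 926, 893 and 887 reads with DMSO versus 491, 556 and 570 with baicalin, and it fell by 0.67 without overlap (SE 0.06, adjusted p = 1.91e-13). Akr1e1, which reduces anhydrofructose, fell by 0.60, from 19.1 ± 1.06 to 12.6 ± 0.634 CPM (SE 0.10, adjusted p = 2.80e-07). Akr1c18, which inactivates progesterone, went up from very few reads, 5, 8 and 4 in DMSO and 11, 11 and 16 in baicalin. Its log2 fold change of 1.21 has a wide error (SE 0.48, adjusted p = 0.0233), and the call was lost under 5 alternatives. Without DMSO library 1 or 3 the adjusted p was 0.0768 and 0.0992, and without the third baicalin library it was 0.118. Akr1c13 had read counts of 39, 41 and 42 in DMSO against 29, 34 and 43 under baicalin (adjusted p = 0.665). It shares 24.23% of its 50-base stretches with other genes, most often with Akr1c12, so Akr1c13 and Akr1c12 are both uncertain. Akr1c19 was too low for the test, with 8, 11 and 17 reads under DMSO versus 0, 0 and 1 under baicalin, and in the fit without a low-count filter it was lower (adjusted p = 1.05e-05).

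Neighbouring members of a cluster were also compared within each library, which needs no scaling between libraries. In 12 pairs of neighbours that could both be tested, the difference between groups in the log2 ratio of their counts was put to a two-sided exact permutation test. With 3 libraries a group this test cannot give a p below 0.1, and 8 of the 12 pairs reached that value (0.15 after adjustment over the 12). That value means only that the ratios in DMSO and in baicalin did not overlap. For single genes the groups did not overlap in 70.2% of all genes tested. The share among other pairs of genes was not computed, and some members stand in several pairs, so the count is no result about neighbours. The count ratio of Adh7 to Adh1 was 11.3, 9.20 and 10.8 in DMSO and 97.6, 76.5 and 136 in baicalin, a difference of 3.24 on the log2 scale and the widest of the 12. The ratio of Aldh1a1 to Aldh1a7 was 0.853, 0.840 and 0.723 in DMSO and 0.417, 0.410 and 0.419 in baicalin (difference -0.95). The ratio of Cbr1 to Cbr3 went from 1.25, 1.62 and 1.63 to 0.710, 0.673 and 0.793 (difference -1.04), so that Cbr3 had fewer reads than Cbr1 in every DMSO library and more in every baicalin library. The ratio of Dhrs4 to Dhrs1 went from 0.309, 0.274 and 0.292 to 0.214, 0.210 and 0.191 (difference -0.51). Akr1b8 and Akr1b10 kept a ratio of 7.76, 8.34 and 8.03 in DMSO and 9.07, 8.17 and 8.61 in baicalin, which overlap (exact permutation p = 0.2), and so did the ratio of Rdh11 to Rdh12 (exact permutation p = 0.5).

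**Figure D5:**
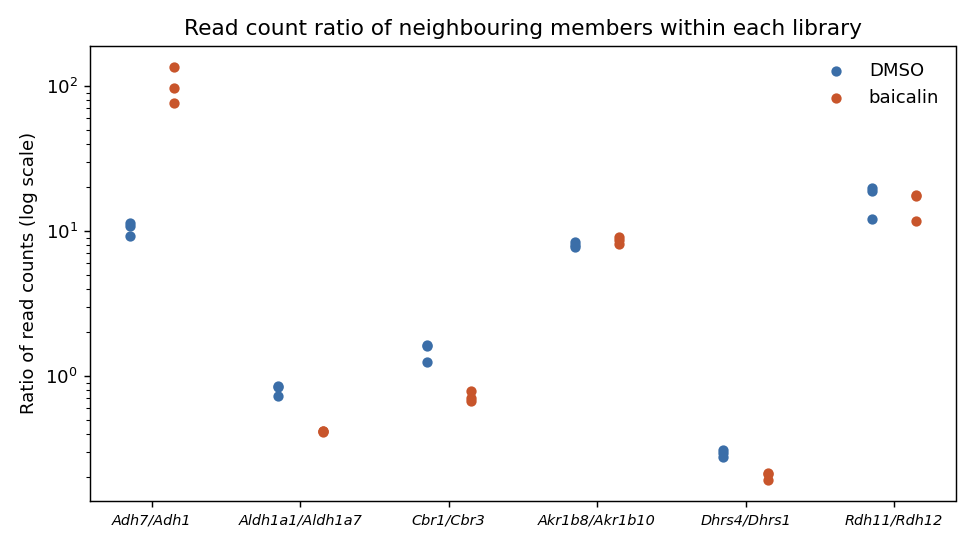
Ratio of read counts (log scale) of 6 pairs of neighbouring members within each library, DMSO in blue and baicalin in red, 3 libraries each. The ratio of Adh7 to Adh1 is higher in every baicalin library and the ratios of Aldh1a1 to Aldh1a7, Cbr1 to Cbr3 and Dhrs4 to Dhrs1 are lower, while those of Akr1b8 to Akr1b10 and Rdh11 to Rdh12 overlap between the groups.

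Of the 27 members too low for the test, 11 had no reads in any library, 13 had between 1 and 12 reads over all 6, and 3 had more, namely Akr1c19, Akr1c12 (19 reads in DMSO and 12 in baicalin) and Aldh3b3. The 7 genes of the Rdh1 to Rdh7 cluster on chromosome 10, a set of hydroxysteroid and retinol dehydrogenases best known from liver, were all in this group. So were Aldh1b1, a mitochondrial relative of Aldh2, with 1 read, the folate enzyme Aldh1l1 with 3, and the bile acid enzyme Akr1d1 with 2. At this depth no difference between groups was detectable for these 3.

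Other enzymes, most of them known to remove reactive carbonyls or quinones, were taken from a list of 27, of which 25 were tested. Of these 15 were higher, 4 lower and 6 not called, beside the 33.6% higher and 34.1% lower of all genes. Their median log2 fold change was 0.43. Gpx4, Por and Xdh, whose main roles lie elsewhere, were among those called higher. The quinone reductase Nqo1 had the largest change (3.69, adjusted p = 1.21e-49). Esd, which releases formate from the glutathione adduct that Adh5 makes, gave 2230, 2004 and 2200 reads with DMSO versus 6713, 7275 and 6956 with baicalin, a log2 fold change of 1.78 (SE 0.04, adjusted p = 1.26e-39). The rise of Esd thus exceeded that of Adh5 (0.35), the step before it, although the difference was not tested. Blvrb, a flavin and biliverdin reductase, rose by 1.45, the glutathione transferase Gstp1 by 1.32 and the thioredoxin reductase Txnrd1 by 1.25 (adjusted p = 1.91e-31, 2.24e-34 and 2.40e-31). Adhfe1, an alcohol dehydrogenase that oxidises hydroxybutyrate and falls outside the name rule, had read counts of 114, 119 and 138 in DMSO against 72, 48 and 45 under baicalin, and fell by 1.09 (SE 0.18, adjusted p = 4.76e-07).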

How the data were processed

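The authors counted reads per gene with featureCounts version 1.5.0-p3 and derived FPKM from counts and gene lengths, per the series design text; the deposited table holds both. Per the submitters' processing notes the build is mm10; the sources used here do not name an aligner, annotation or strand setting.

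Counts of all genes were tested in edgeR 4.0.16 (R 4.3.3; filterByExpr, TMM, robust quasi-likelihood fit, treatment as the only term), with Benjamini-Hochberg adjustment over 13728 genes and a threshold of 0.05. The script was tested on simulated data. CPM values use TMM-scaled libraries; the biological coefficient of variation was 4.61%. FPKM served for levels between genes and, as log2(FPKM + 1) and log2(FPKM + 0.1) in limma 3.58.1, as alternatives, beside DESeq2 1.42.0, limma-voom, other scalings and filters, removal of length and GC trends (lowess span 0.3), the replicate number as a block, and leaving out each library.

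The members and gene lists were chosen with earlier results of these data known. Any tested member may be named. Per-library counts were planned for called members past 2-fold with a mean of at least 5 CPM, the most abundant of each family and those not called; those of Adh1, Akr1c18, Akr1c19, Rdh10, Aldh1a1, Aldh4a1, Aldh6a1, Aldh2, Akr1c14, Cbr1, Cbr4 and Dhrs13, and of the genes around proline, were added after their values were seen. From each list up to 6 called genes are named by size of change; some genes are not reported here. Coordinates are from GENCODE M21, which holds 54495 of the gene identifiers, 37 being absent. Clusters join members at most 250000 bases apart, and neighbour pairs are successive tested members of a cluster, with untested members between some of them.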

Additional observations from a re-analysis of the deposited data

How the results depend on the processing

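Of the 24 higher and 8 lower members, leaving out a library gave 23 to 25 higher and 8 to 9 lower, and the fit with the replicate block gave 25 higher and 8 lower. The replicate numbers were not shown to pair the samples: deviations of same-numbered libraries from their group means correlated at 0.053, 0.051 and -0.0044. With library size alone, 3 Aldh members were higher and 5 lower, where the scaling used gave 5 and 3. Removing length and GC trends left 3 Akr and 4 Dhrs members higher, 0 Cbr and 2 Rdh members lower. DESeq2 left 3 Akr members higher and 0 Cbr members lower, and log2(FPKM + 1) without a filter also gave 0 Cbr members lower. Signs turned only in members that were not called: Aldh7a1 (0.01) and Rdh14 (0.00) without a low-count filter, and Dhrs4 (-0.07) with length and GC trends removed. When libraries were left out, Aldh7a1 ran from -0.05 to 0.00 (just above 0 without baicalin library 1), Rdh14 from -0.08 to 0.05 and Rdh5 from -0.33 to 0.19. The cause of these changes was not tested. By alternative, between 0 and 6 of the 43 members lost a call and between 0 and 3 gained one. Genes with few reads, such as Akr1c18, are limited by depth.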

Other observations

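Among enzymes that produce aldehydes, the share of lower genes was close to that of all genes (34.1% lower and 33.6% higher). Of 26 tested in a list of 30, 12 were higher, 9 lower and 5 not called, with a median log2 fold change of 0.04. Aoc3, the amine oxidase of the fat cell surface, had read counts of 688, 637 and 631 in DMSO against 81, 121 and 100 under baicalin, a log2 fold change of -2.62 (edgeR adjusted p = 1.59e-29). The groups are far apart, as they are for Smox, the spermine oxidase, with 288, 295 and 339 reads under DMSO versus 1303, 1387 and 1346 under baicalin (log2 fold change 2.20, adjusted p = 2.05e-34). The cyclooxygenases Ptgs2 and Ptgs1, whose products include lipid aldehydes, rose by 2.75 and 2.08 (adjusted p = 1.07e-34 and 6.23e-43). Shmt2, the mitochondrial serine hydroxymethyltransferase, rose by 1.40 (adjusted p = 7.27e-32), whereas its cytosolic counterpart Shmt1, named after its values were seen, fell by 1.10 (adjusted p = 1.61e-11).

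Dehydrogenases and reductases of steroid and fatty acid metabolism, most of them short-chain enzymes like the Dhrs and Rdh genes, had 10 higher, 3 lower and 5 not called of 18 tested in a list of 33, with a median of 0.31, again beside 33.6% higher and 34.1% lower of all genes. Hsd11b1, which regenerates active glucocorticoid, gave 316, 267 and 248 reads with DMSO versus 592, 576 and 531 with baicalin (log2 fold change 1.11, adjusted p = 1.14e-16). Hsd17b7, an enzyme of cholesterol synthesis, rose by 0.82, Hsd17b12, an enzyme of fatty acid elongation, by 0.73, and mitochondrial Hsd17b10 by 0.46 (adjusted p = 2.40e-11, 9.06e-19 and 1.13e-10). Hsd17b11, found on lipid droplets, fell by 0.44 (adjusted p = 4.11e-07). Pecr, a peroxisomal enoyl reductase, rose by 0.44 (adjusted p = 0.00532) and lost its call under 4 alternatives, among them without the third baicalin library (adjusted p = 0.114).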
